A study of Drosophila melanogaster with 10 samples.

Results

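Testes labelled as a knockdown of the kinesin gene Klp59D were compared, gene by gene, with testes of a spermatocyte arrest (sa) mutant of Drosophila melanogaster. The comparison took every library that the labels give to these 2 of the 5 conditions, 4 libraries of the 10 in the series, and the counts of all genes. The first genotype is given as w;Klp59DRNAi;bam-Gal4, UAS-dicer2, so an RNA interference construct and extra Dicer-2 are driven by bam-Gal4, which is active in the late dividing spermatogonia and not in the somatic cells of the testis. These flies grew at 22°C for 3 days and then at 30°C for 8 days. The second genotype is given as sa-/-, without the alleles, and these flies grew at 22°C for 12 days with no driver and no Dicer-2 construct. Each library was made from 100 pairs of whole testes of males under 2 days old, and both groups are labelled as enriched for mature spermatocytes. Genotype, driver and temperature differ together between the groups and cannot be told apart here. Wild type (WT), grown at 22°C for 10 days, and the other knockdowns, grown like the first group, are used below only to place levels.

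Spermatocytes of the fly transcribe, during a long meiotic prophase, most of the genes that spermatids later use to build the tail and pack the sperm nucleus. The testis meiotic arrest complex (tMAC) and the testis TAFs, which are paralogs of subunits of the general factor TFIID, switch this program on. The gene sa encodes the testis relative of Taf8, and spermatocytes without it stop before the meiotic divisions and make no spermatids. Klp59D belongs to the kinesin-13 family of microtubule motors.

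The labelled Klp59D KD libraries held 24690735 and 27500068 counts and those of the sa mutant 17621525 and 19807188. The 2 libraries of a group differed by about as much as repeated sequencing of the same material would. Among genes with 50 to 5000 counts, 5.72% lay outside the 95% binomial range between the labelled Klp59D KD libraries, and 5.79% between those of the sa mutant. The median squared deviation over its expectation was 1.10 and 1.06 within these groups, and 355 between the groups. The libraries of each group were therefore summed and counted as 1 sample, no p-value is given, and the differences have no replicate check across flies. Levels are TMM-scaled CPM (reads counted for a gene relative to the scaled library total), and a fold carries a 95% exact binomial interval that covers counting error only. In whole testes, fewer cells of a type and less RNA per cell cannot be told apart.

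The targeted genes were read first, since they check the labels. The sa transcript (FBgn0002842, chromosome 3L, 21405425 to 21406738, minus strand of dm6) had 125 and 129 CPM in the labelled Klp59D KD libraries, against 3.73 and 3.24 CPM in the mutant. It was 36.6-fold higher in the first (interval 31.4 to 43.0), as the label of the mutant would have it. Klp59D itself (chromosome 2R, 23141999 to 23144497, plus strand) stood at 333 and 336 CPM in the libraries that carry its name and at 196 and 196 CPM in the sa mutant. The gene named as the target was thus 1.71-fold higher in its own labelled knockdown (1.67 to 1.75) and near the WT level of 340 CPM. Tektin-C, which encodes a protein of the tektin family of axonemal filament proteins (chromosome 3L, 5794405 to 5796543, minus strand), went the other way. It had 12.7 and 11.6 CPM in the labelled Klp59D KD libraries, at 60.2 and 60 CPM in the sa mutant and at 221 CPM in WT. In the labelled Tektin-C KD libraries, Tektin-C was at 203 CPM and Klp59D at 29.7 CPM. The labelled Klp59D KD libraries therefore go against their label, and every direction below is that of the libraries so labelled. B9d1, the target of another knockdown in the series, differed little, at 173 and 170 against 193 and 195 CPM. Dcr-2, the gene carried as UAS-dicer2, stood at 102 and 102 against 95 and 97.0 CPM, with WT at 142 CPM. WT levels here and below rest on a TMM factor of 0.756, beside 1.11 and 1.29 for the compared groups. Scaling by library size alone would place WT lower beside both groups, so the order of WT and a group can depend on the scaling.

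**Figure D1:**
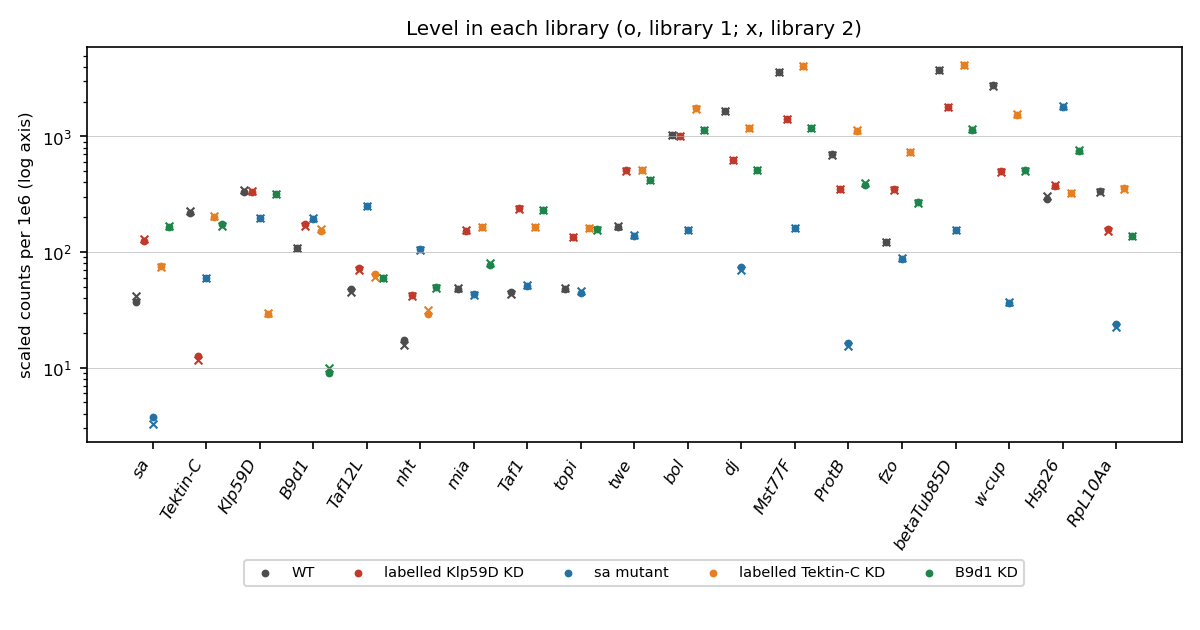
Level of the targeted genes and of genes described below in every library of the series, as scaled CPM on a log axis. Circles are library 1, crosses library 2, and colours mark the 5 conditions. The symbols of the 2 libraries of a condition lie almost on each other, sa is lowest in the sa mutant, Tektin-C is lowest in the labelled Klp59D KD libraries, and Klp59D is lowest in those labelled Tektin-C KD.

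Of 13831 genes measured, 3319 were at least 2-fold higher in the labelled Klp59D KD libraries than in the sa mutant (24.0%) and 2248 were at least 2-fold lower (16.3%), so that 40.3% of genes were 2-fold apart. At least 8-fold differences were more often higher than lower, 454 genes against 143, and 26 and 10 genes were at least 32-fold apart. The median over all genes was -0.01 on the log2 scale, and 5383 genes (38.9%) lay within 1.5-fold. Scaling by library size alone, without TMM factors, moved that median to -0.23 and gave 2847 higher and 3116 lower genes, so that the share of higher genes among those 2-fold apart went from 59.6% to 47.7%. Differences smaller than that shift can take either sign with the scaling, and no direction is drawn from them.

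**Figure D2:**
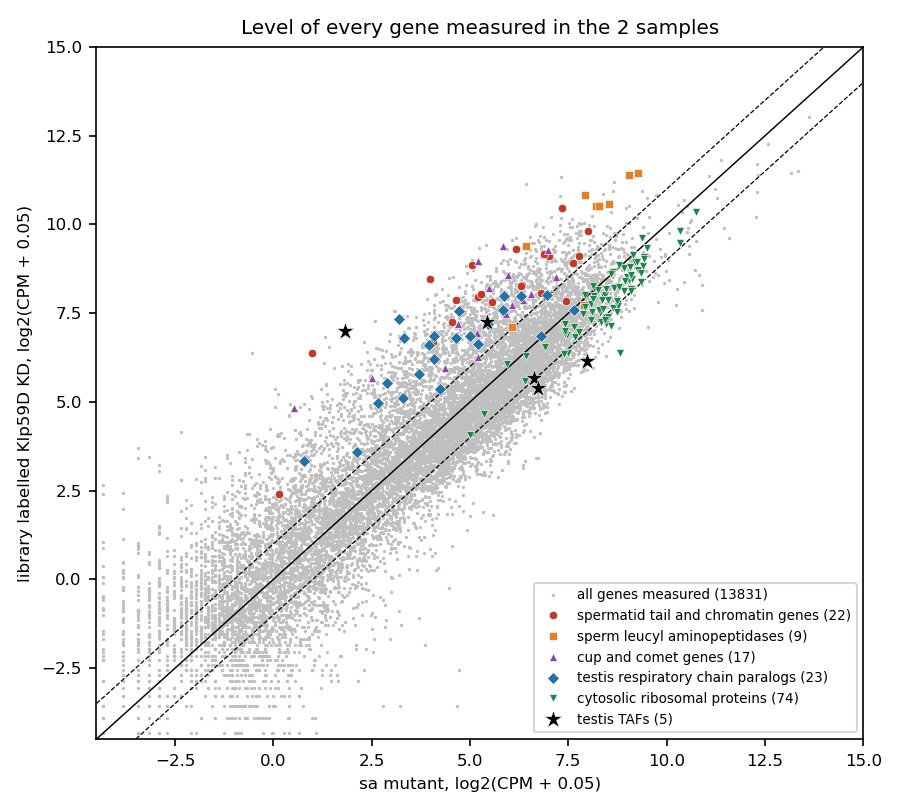
Level of each of the 13831 genes in the sa mutant (x axis) and in the labelled Klp59D KD libraries (y axis), as log2 of scaled CPM plus a small constant. The solid line marks equal levels and the dashed lines a 2-fold difference. The spermatid, leucyl aminopeptidase, cup and comet and testis respiratory chain genes lie above the upper dashed line with few exceptions, and the cytosolic ribosomal protein genes lie along and below the solid line.

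The 10 largest higher values among named genes of moderate or high level were led by sa itself. Next came salto, at 2273 and 2283 CPM in the labelled Klp59D KD libraries and 84.4 and 86.6 CPM in the sa mutant, 26.6-fold higher (25.8 to 27.5). Cap-G, a condensin subunit of chromosome compaction, stood at 186 and 188 against 8.38 and 8.43 CPM. Bfc stood at 652 and 637 against 35.4 and 38.7 CPM. The rest of the 10 were t-Grip91, ProtB, COX6AL2, Ald2, Mst33A and w-cup, each described with its group below. Among genes of such level known by a CG number, CG33489 led with 114 and 113 against 2.59 and 2.30 CPM. It was 46.6-fold higher (38.8 to 56.3), and it shares exon sequence with another gene on its strand. CG numbers made up 53.5% of the 454 genes at least 8-fold higher and 35.7% of all genes measured.

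Among named genes of moderate or high level, those furthest lower in the labelled Klp59D KD libraries were of other kinds. The largest was bero, at 10.3 and 9.93 CPM against 84.7 and 83.9 CPM in the sa mutant, 8.34-fold higher in the mutant (7.65 to 9.11). It was also low in the other knockdowns (9.06 CPM in B9d1 KD, 11.9 CPM in labelled Tektin-C KD) and high in WT (121 CPM). The tetraspanin gene Tsp42Ei, the cytochrome P450 genes Cyp4g1 and Cyp6d5 and the glucuronosyltransferase gene Ugt302C1 had the same order, low in all 3 knockdowns and high in WT and the sa mutant. Cyp6d5, for example, stood at 141 and 137 CPM against 741 and 730 CPM, and at 1018 CPM in WT, 139 CPM in B9d1 KD and 123 CPM in labelled Tektin-C KD. A second kind was high in the sa mutant alone. Galphaf, a G protein subunit, stood at 7.22 and 7.56 against 52.9 and 52.1 CPM with WT at 6.76 CPM. Dhdds, a gene of dolichol synthesis, PCNA2, a paralog of the replication clamp, and the Polycomb gene Sce were likewise at 6.72 to 10.7 CPM in WT and at 43.5 to 64.4 CPM in the libraries of the sa mutant. Galphaf and Tsp42Ei overlap a gene on the other strand. Among CG numbers of such level, CG11700 was furthest lower, at 195 and 190 against 1917 and 1904 CPM with WT at 84.1 CPM.

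These orders were counted over all genes 2-fold apart, as a description with no test. Each order contains the 2-fold difference by which the genes were picked, so its share among them is raised by that choice. Of the 3319 higher genes, 1885 (56.8%) were at least 2-fold lower in the sa mutant than in each of the 4 other conditions, 337 (10.2%) were higher in all 3 knockdowns than in both WT and the sa mutant, and 134 (4.04%) were higher in the labelled Klp59D KD libraries than in each other condition. Of the 2248 lower genes, 643 (28.6%) were at least 2-fold higher in the sa mutant than in all others, 439 (19.5%) were lower in all 3 knockdowns than in both WT and the mutant, and 44 (1.96%) were lower in the labelled Klp59D KD libraries alone. Tektin-C was among those 44. Among all 13831 genes measured, the orders of the higher genes made up 13.6%, 2.44% and 0.97%. Those of the lower genes made up 4.65%, 3.17% and 0.32%. The 454 genes at least 8-fold higher were lower in the sa mutant than in all others in 410 cases (90.3%), beside that 13.6%. Of the 454, 17 had no count in the sa mutant.

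The testis TAFs and their general relatives did not move together. Apart from sa, mia, the testis relative of Taf6, was higher in the labelled Klp59D KD libraries, at 151 and 156 against 43.7 and 42.7 CPM (log2 difference 1.83). The other 3 were lower or near the line. Taf12L stood at 72.2 and 70.4 against 251 and 252 CPM (-1.82), nht, the relative of Taf4, at 42.2 and 41.6 against 106 and 104 CPM (-1.33), and can, the relative of Taf5, at 51.0 and 50.6 against 99.2 and 97.9 CPM (-0.95). The 5 testis TAFs thus split into 2 at least 2-fold higher, 2 lower and 1 between (2 higher and 3 lower with library size alone). Among the 14 general TFIID genes, 1 was higher and 2 were lower (4 with library size alone), beside 24.0% and 16.3% of all genes. Taf1, the largest subunit, stood at 240 and 238 against 50.5 and 51.9 CPM (2.22), while Taf5 stood at 12.1 and 11.8 against 32.8 and 33.9 CPM (-1.48) and Taf2 at 111 and 112 against 224 and 229 CPM (-1.02).

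Genes of tMAC, which acts beside the testis TAFs, were mostly at similar levels. Of 9 measured, 1 was higher and 2 were lower, beside 24.0% and 16.3% of all genes. The core gene aly of the complex stood at 78.6 and 78.7 against 76.0 and 79.0 CPM. The zinc finger subunit gene topi was higher, at 134 and 134 against 44.0 and 45.8 CPM (1.57), and Caf1-55, which the complex shares with other chromatin complexes, was lower, at 36.3 and 38.7 against 150 and 151 CPM. The testis bromodomain and Plus3 genes, whose proteins act in the same transcription program, had 3 of 5 members higher and none lower. With library size alone 2 were higher and 1 was lower. The highest difference was that of tplus3b (23.9 and 24.2 against 8.03 and 7.18 CPM), and tbrd-2 stood at 241 and 241 against 98.7 and 95.9 CPM. Polycomb genes, whose products repress transcription, had 3 of 16 higher and 2 lower, near the 24.0% and 16.3% of all genes. The DNA-binding factor pho stood at 190 and 191 against 66.2 and 66.8 CPM and ph-d at 18.8 and 18.2 against 6.45 and 5.42 CPM. The ubiquitin ligase gene Sce stood lower, at 7.91 and 8.29 against 46.8 and 45.2 CPM (-2.50).

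Genes that time the meiotic divisions differed in both directions. Of 16 measured, 5 were at least 2-fold higher in the labelled Klp59D KD libraries and 2 were lower, with a median of 0.57; with library size alone 3 were higher and 3 lower. Both counts lie near the 24.0% and 16.3% of all genes. The RNA-binding protein gene bol, needed for translation of the meiotic phosphatase, stood at 1006 and 1002 against 157 and 157 CPM (2.68). That phosphatase gene, twe, stood at 511 and 504 against 138 and 140 CPM (1.87), and the mitotic kinase gene polo at 686 and 690 against 264 and 257 CPM (1.40). Cdk1, the kinase that twe activates, was lower, at 45.1 and 47.3 against 134 and 138 CPM (-1.56), as was Rbp4, an RNA-binding protein gene that restrains cyclin B translation, at 158 and 158 against 364 and 372 CPM (-1.22). CycA lay at 265 and 259 against 268 and 267 CPM. WT levels of twe (166 CPM) and polo (139 CPM) were nearer those of the sa mutant. WT bol (1028 CPM) was near that of the labelled Klp59D KD libraries. The bol gene shares exon sequence with another gene on its strand.

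Of 18 genes of stem cells and spermatogonia, 1 was higher and 4 were lower (median -0.07), beside 24.0% and 16.3% of all genes. The differentiation factor gene bam stood at 17.6 and 15.8 against 38.8 and 38.4 CPM (-1.21), its partner tut at 23.1 and 23.0 against 48.5 and 47.5 CPM, and nanos at 22.1 and 22.2 against 49.5 and 48.7 CPM. All 3 were higher in the mutant by a little over 2-fold. Cell cycle and replication genes had 5 of 23 higher and 2 lower, and 2 higher and 3 lower with library size alone, beside 24.0% and 16.3% of all genes. CycE stood at 35.5 and 37.3 against 6.10 and 5.74 CPM (2.62) and the ribonucleotide reductase gene RnrS at 89.3 and 86.6 against 18.3 and 16.7 CPM (2.33), while the helicase gene Mcm5 stood at 20.1 and 19.3 against 46.8 and 43.6 CPM (-1.20). Of 9 genes of male meiotic chromosomes, none was lower, and tef, needed to pair autosomes, lay at the 2-fold line. It stood at 13.8 and 12.9 against 5.88 and 7.30 CPM (1.00), and was under 2-fold with library size alone (0.78), without structural RNA and mitochondrial genes (0.99), without the first labelled Klp59D KD library (0.95) and without the first sa mutant library (0.87). The cohesion gene ord stood at 76.0 and 71.9 against 76.0 and 75.9 CPM.

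**Figure D3:**
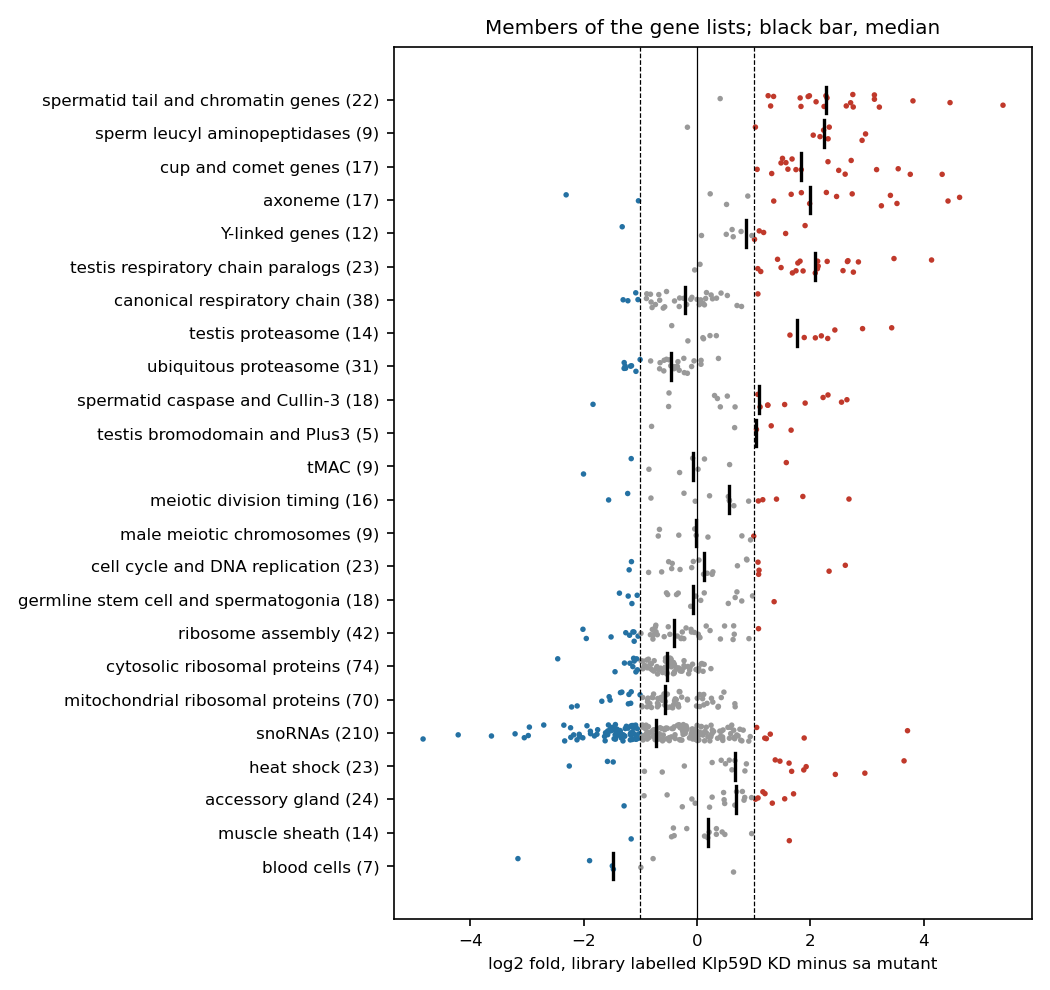
Difference of each member of 24 gene lists between the labelled Klp59D KD libraries and the sa mutant, on the log2 scale. Each point is a gene, red at least 2-fold higher, blue at least 2-fold lower and grey between, and the black bar is the median of the list. The spermatid, leucyl aminopeptidase, cup and comet and testis respiratory chain lists lie almost wholly right of the upper dashed line, while the ribosomal protein and snoRNA lists lie mostly left of zero.

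Genes of the spermatid tail and sperm chromatin were higher in the labelled Klp59D KD libraries almost without exception. Of 22 measured, 21 were at least 2-fold higher and none was lower, with a median of 2.28 beside -0.01 for all genes. Mst33A stood at 463 and 463 against 33.7 and 32.4 CPM (3.81). The protamine gene ProtB, whose product packs the sperm nucleus, stood at 349 and 351 against 16.2 and 15.5 CPM, 22.1-fold higher (20.6 to 23.8). Mst77F, a linker histone relative of the condensing nucleus, stood at 1414 and 1424 against 162 and 162 CPM (3.13), and dj, a protein gene of the sperm tail, at 632 and 631 against 73.9 and 70.6 CPM (3.13). The lowest member in the mutant was Mst36Fa, at 81.6 and 83.5 against 1.40 and 2.38 CPM. The member that stayed within 2-fold was janA, at 232 and 226 against 176 and 170 CPM (0.41). Its neighbour janB stood at 231 and 235 against 24.9 and 25.3 CPM (3.22). The genes janA and janB overlap on the same strand, so reads could be split between them. The libraries of the groups did not overlap for any gene named here. This adds nothing on variation between flies, since libraries of a group agree within about sampling noise. The share of all genes without such overlap was not counted, so non-overlap does not set these genes apart. In WT, which holds spermatids, the list summed to 28293 CPM, against 8478 CPM in the labelled Klp59D KD libraries and 1866 CPM in the sa mutant.

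Cup and comet genes, known for transcription in spermatids and for mRNAs that gather at the end of the growing tail, were all at least 2-fold higher (17 of 17, median 1.84; 16 of 17 with scaling by library size alone). The largest difference was that of t-cup, at 29.4 and 27.7 against 1.40 and 1.37 CPM (4.32), and the smallest that of hale, at 74.9 and 77.5 against 35.6 and 37.4 CPM (1.06). The w-cup gene stood at 504 and 491 against 36.5 and 36.7 CPM, with 2771 CPM in WT, so that its level in the labelled Klp59D KD libraries lay between the mutant and WT. Of the sperm leucyl aminopeptidases, abundant proteins of the sperm mitochondrial derivative, 8 of 9 were higher (7 with library size alone). S-Lap4 stood at 1841 and 1830 against 246 and 242 CPM (2.91) and loopin-1 at 1464 and 1465 against 318 and 306 CPM (2.23). The exception was grsm, at 210 and 211 against 236 and 238 CPM (-0.17). These genes resemble each other in sequence, and reads could be split or lost among them.

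Among 17 axonemal genes, 12 were at least 2-fold higher and 2 were lower. The testis tubulin gene betaTub85D stood at 1783 and 1791 against 156 and 154 CPM (3.53), and dtr, a relative of a human dynein assembly factor, at 181 against 17.0 CPM over the summed libraries (3.41). Ccdc114, whose human relative docks dynein arms, stood at 62.6 against 2.87 CPM (4.43). Ccdc114 stood at 0.620 CPM in WT, so it did not share the WT order of the others. The lowest was Tektin-C (-2.31, values above), and tilB and Bug22 lay within 2-fold. Sdic2 had no count in the sa mutant and at most 1.18 CPM in a library of the other group, so no fold is given, and its reads can be split with Sdic1.

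Other tubulin and microtubule genes went both ways. Beyond betaTub85D, 1 of the 8 tubulin genes was higher (alphaTub84D, 150 and 149 against 69.0 and 72.5 CPM) and 1 was lower (betaTub97EF, 6.01 and 6.05 against 14.3 and 13.4 CPM). In the gamma-tubulin complex, which nucleates microtubules, 4 of 10 genes were higher and none was lower, beside 24.0% and 16.3% of all genes. Those 4 were Mzt1 and the testis subunits t-Grip91 (191 and 190 against 7.50 and 9.01 CPM, 22.9-fold, 20.8 to 25.4), t-Grip128 and t-Grip84, while the 6 general Grip genes lay between -0.94 and -0.13. Of 16 kinesin genes, 3 were higher and 4 were lower (2 and 6 with library size alone), beside 24.0% and 16.3% of all genes. The spindle midzone kinesin Klp3A stood at 496 and 498 against 146 and 146 CPM (1.77), and kinesin heavy chain, Khc, at 98.2 and 98.8 against 324 and 328 CPM (-1.73). Genes of meiotic cytokinesis had 1 of 17 higher and 4 lower, beside the same shares of all genes. Scaling by library size alone gave 0 higher and 8 lower. The phosphatidylinositol kinase gene fwd stood at 258 and 252 against 112 and 109 CPM, and Rab11, which acts with it at the furrow, at 219 and 213 against 485 and 489 CPM.

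Centriole genes went both ways, with 3 of 16 higher and 4 lower, beside 24.0% and 16.3% of all genes. SAK, the kinase that starts centriole duplication, stood at 207 and 205 against 82.3 and 82.6 CPM (1.32), whereas ana3 stood at 107 and 102 against 363 and 370 CPM (-1.81). Among 7 measured genes of the ciliary transition zone, 2 were higher and none lower, beside the same shares of all genes. The centrosomal gene dila stood at 138 and 137 against 35.0 and 37.7 CPM (1.92) and Cby at 14.6 and 15.8 against 6.14 and 6.24 CPM (1.29), with Cc2d2a and Fam92 within 2-fold.

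Y-linked genes, several of which encode axonemal dyneins of the sperm, split with the scaling. Of 12 measured, 5 were at least 2-fold higher with TMM factors and 2 with library size alone, and 1 was lower. Over all genes, 24.0% were higher and 16.3% lower with TMM factors. The dynein gene kl-2 stood at 29.2 and 30.1 against 7.63 and 8.12 CPM (1.91) and ARY at 49.0 and 48.8 against 15.9 and 17.1 CPM (1.56). The large dynein gene kl-3 did not follow, at 58.1 and 56.9 against 54.4 and 54.4 CPM (0.08), and FDY was lower, at 42.0 and 43.4 against 107 and 106 CPM (-1.32). For these genes the libraries of the groups did not overlap, also for kl-3 at 0.08, so non-overlap does not mark a large difference.

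Many housekeeping complexes have a second, testis copy of a subunit, and the lists of testis copies and of general copies had different values. Of 14 testis proteasome genes, 8 were at least 2-fold higher in the labelled Klp59D KD libraries and none was lower (median 1.77), beside 0 of 31 ubiquitous proteasome genes higher and 8 lower (median -0.46). Prosalpha4T1 stood at 97.4 and 95.4 against 8.11 and 9.56 CPM (3.43), and its general relative Prosalpha4 at 108 and 114 against 249 and 252 CPM (-1.17). Prosalpha6T stood at 185 and 182 against 35.4 and 32.6 CPM (2.43), with Prosalpha6 at 112 and 113 against 271 and 271 CPM (-1.27). The ATPase paralogs Rpt6R (242 and 239 against 224 and 220 CPM) and Rpt4R (174 and 173 against 164 and 160 CPM) lay within 2-fold.

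The same was measured for the respiratory chain. Of 23 testis paralogs, 21 were higher and none was lower (median 2.09). Of 38 canonical subunits, 1 was higher and 4 were lower (median -0.21). Scaling by library size alone gave 19 higher testis paralogs, and 0 higher and 9 lower canonical subunits. The cytochrome oxidase paralog COX6AL2 stood at 161 and 159 against 9.04 and 9.09 CPM, 17.7-fold higher (16.0 to 19.5); it shares exon sequence with other genes on both strands. The succinate dehydrogenase paralog SdhAL stood at 99.4 and 96.8 against 16.0 and 15 CPM (2.66), and SdhA, its general copy, was the canonical subunit that was higher too, at 551 and 549 against 263 and 259 CPM (1.07). The exceptions among the paralogs were ND-24L, at 117 and 114 against 111 and 111 CPM, and ATPsynbetaL, at 193 and 193 against 197 and 201 CPM. Of 6 measured genes listed as testis paralogs of glycolytic and related enzymes, 4 were higher (3 with library size alone). The list was written with Gapdh1 and Men-b, which are in no pair of testis and general copies below. Whether they are testis copies was not tested. The aldolase Ald2 led, at 256 and 257 against 17.5 and 17.1 CPM (3.89). General glycolysis genes had 3 of 12 higher and 0 lower with TMM factors, beside 24.0% and 16.3% of all genes. Scaling by library size alone gave 0 higher and 3 lower.

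The share of the testis copy within a pair does not depend on the scaling between samples. Counted per kilobase of exon, the testis copy made up a median of 53.6% of 14 proteasome pairs in the labelled Klp59D KD libraries, 11.1% in the sa mutant and 62.6% in WT, and its share was higher in the first than in the mutant in 13 pairs. Over 18 respiratory chain pairs the medians were 68.3%, 28.5% and 67.3%, and the share was higher in all 18. For the 3 gamma-tubulin complex pairs they were 74.2%, 8.73% and 89.4%, again higher in all 3, and for 4 glycolysis pairs 78.5%, 55.3% and 73.5%. Ribosomal protein pairs did not share this, with a median of 40.4% against 40.3% and 5 of 10 pairs higher. Whether the first gene of these pairs is a testis copy was not tested. Within them, RpL10Aa took 69.8% of its pair with RpL10Ab in the labelled Klp59D KD libraries, 5.89% in the sa mutant and 50.6% in WT. In the TFIID pairs the share was higher in 3 of 5. Some pairs share a general copy and so are not independent.

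**Figure D4:**
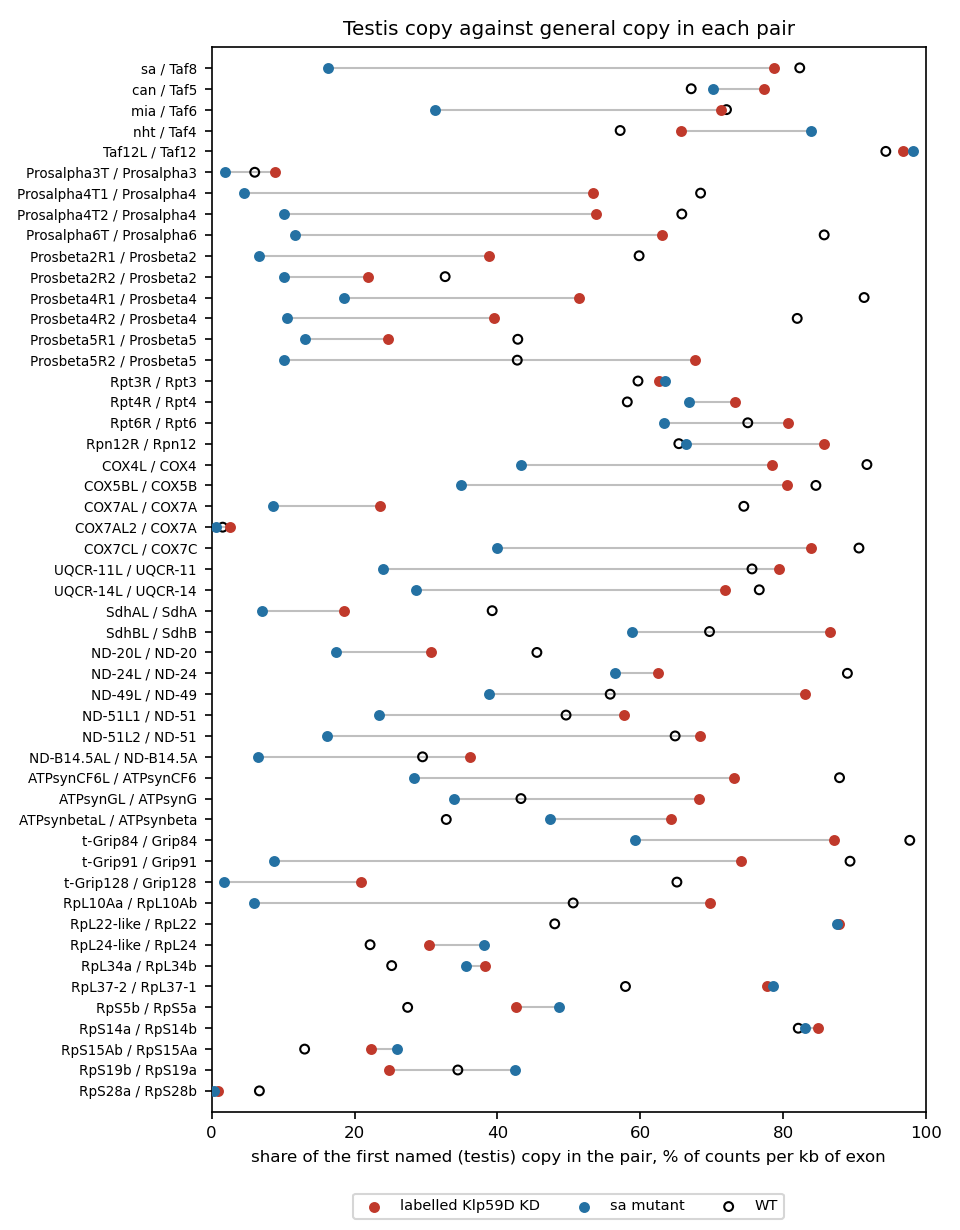
Share of the testis copy in each pair of testis and general paralogs, as a percent of counts per kilobase of exon, in the labelled Klp59D KD libraries (red), the sa mutant (blue) and WT (open circles). Grey lines join red and blue. In the ribosomal protein pairs the share is that of the first named gene, whose use in the testis was not tested. Red lies right of blue in all 18 respiratory chain pairs and in 13 of 14 proteasome pairs, and on both sides of it in the ribosomal protein pairs.

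Of the lists read next for late spermatid remodelling, only the caspase and Cullin-3 list passed the 24.0% of higher genes among all genes. Of 18 genes of the spermatid caspase and Cullin-3 pathway, which removes bulk cytoplasm, 10 were higher and 1 was lower (median 1.09). With library size alone 8 were higher and 1 was lower. The RING protein gene Roc1b stood at 51.0 and 50.4 against 8.03 and 8.12 CPM (2.64), the translation regulator orb2 at 536 and 542 against 93.1 and 91.2 CPM (2.55), and soti, an inhibitor of the ligase, at 632 and 622 against 126 and 127 CPM (2.31). Dronc, the initiator caspase, was the lower member, at 30.2 and 30.2 against 110 and 106 CPM (-1.83), and Cul3 lay within 2-fold. Of 10 genes of the mitochondrial derivative, 2 were higher (1 with library size alone). The mitofusin fzo stood at 350 and 347 against 86.2 and 88.3 CPM (2.00), the iron carrier mfrn at 268 and 274 against 128 and 131 CPM (1.07), and Marf, the general mitofusin, at 134 and 138 against 147 and 146 CPM. Among the Skp1-related genes SkpF alone was past 2-fold with TMM factors, at 93.8 and 91.0 against 25.9 and 24.3 CPM (1.88).

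Of 15 translation initiation genes, 5 were higher and 1 was lower, beside 24.0% and 16.3% of all genes. The cap-binding paralog eIF4E5 stood at 432 and 423 against 111 and 108 CPM (1.97), and eIF4E6 was the lower one, at 14.1 and 15.4 against 45.1 and 46.8 CPM (-1.63). Of 13 nuclear transport genes, 4 were higher (3 with library size alone), beside 24.0% of all genes. The furthest was Ran-like at 178 and 182 against 15.2 and 15.9 CPM (3.53), while Ran itself stood at 988 and 979 against 680 and 673 CPM (0.54).

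Ribosomal protein genes lay below the median of all genes in the labelled Klp59D KD libraries. None of 74 cytosolic ribosomal protein genes was higher, beside 24.0% of all genes, and the median was -0.53. The 10 that were lower (22 with library size alone) are a share near the 16.3% of all genes. The largest was RpL10Ab, at 82.3 and 82.5 against 448 and 456 CPM (-2.46). Its paralog RpL10Aa went the other way, at 158 and 153 against 23.8 and 22.6 CPM (2.74). RpL10Ab overlaps a gene on the other strand. Over 13 cytosolic ribosomal protein paralogs measured, 3 were higher and 6 were lower (median -0.89). RpLP0 and RpL32 stood at about the same level in both groups. Mitochondrial ribosomal protein genes had 0 of 70 higher, beside 24.0% of all genes, with a median of -0.56. Of the 70, 12 were lower, again near the 16.3% of all genes that were lower. With library size alone 23 were lower. The largest difference was that of mRpL17, at 5.64 and 6.48 against 28.7 and 27.9 CPM. Of 42 ribosome assembly genes, 1 was higher and 9 were lower (median -0.41), beside 24.0% and 16.3% of all genes. Polr1E, a subunit of RNA polymerase I, stood at 58.3 and 58.3 against 241 and 230 CPM (-2.01), the rRNA methyltransferase Fib at 11.4 against 27.3 CPM over the summed libraries (-1.26), and the nucleolar chaperone Nph at 250 and 246 against 370 and 370 CPM (-0.58).

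Small nucleolar RNAs and mitochondrial transcripts were lower more widely. Of 210 snoRNAs measured, 84 were at least 2-fold lower and 6 were higher (median -0.73), against 16.3% lower among all genes. The most abundant, Psi28S-3342, stood at 948 and 970 against 2791 and 2823 CPM, with 3047 CPM in WT. Those lying in introns could share reads with unspliced host transcripts. The mitochondrial genome took 2.74% and 2.76% of all counts in the labelled Klp59D KD libraries and 7.53% and 7.57% in the sa mutant. Of its 28 measured genes 12 were lower and none was higher, and mt:ND2, a subunit of complex I, stood at 299 and 324 against 1878 and 1923 CPM (-2.61). The share was 7.47% and 7.52% in WT and 1.75% to 2.23% in the libraries of the other knockdowns, so it was low in every library of flies that carried the driver and grew at 30°C, which cannot be told apart.

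The groups grew at different temperatures, and heat shock genes were read for that reason. Of 23 measured, 9 were higher in the labelled Klp59D KD libraries, which grew at 30°C, and 3 were lower, with a median of 0.67, beside 24.0% and 16.3% of all genes. The heat-inducible Hsp70Bb stood at 34.1 and 30.6 against 3.51 and 4.64 CPM (2.96), with 31.8 CPM in WT grown at 22°C, and shares near-identical copies with other Hsp70 genes. The chaperonin paralog Hsp60C was higher, at 832 and 838 against 218 and 221 CPM (1.93; WT 1425 CPM). Hsp26, a small heat shock protein gene, was lower, at 376 and 381 against 1787 and 1818 CPM (-2.25), and its WT level was 297 CPM. Hsp83 and Hsc70-4 lay within 2-fold. Of 7 genes of RNA interference, 1 was higher (loqs, 517 and 519 against 214 and 220 CPM), and r2d2 and AGO2 lay within 2-fold; with library size alone 2 of the 7 were lower.

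Markers of other cells that whole testes may hold were read as lists. Hub and cyst cell markers summed to 198 and 199 CPM in the labelled Klp59D KD libraries and 191 and 193 CPM in the sa mutant, with 3 of 14 higher and 1 lower; the defining factors tj and zfh1 stood at 5.27 and 4.44 against 4.52 and 5.50 CPM and at 15.3 and 16.0 against 16.2 and 16.1 CPM. Muscle sheath genes summed to 1482 CPM against 1153 CPM, with 1 of 14 higher and 1 lower. Accessory gland genes summed to 3431 CPM against 1693 CPM, and to 48.6 CPM in WT. Of the 24, 7 were higher and 1 lower (3 and 2 with library size alone), beside 24.0% and 16.3% of all genes. The median of the list was 0.68, and 18 of the 24 lay above 0. Among them, Acp36DE, a seminal fluid protein gene, stood at 1947 and 1956 against 681 and 657 CPM. Blood cell markers went the other way, summing to 309 CPM against 693 CPM, with 4 of 7 lower and none higher, and NimC1 stood at 1.28 and 1.09 against 10.9 and 10.8 CPM. Ejaculatory duct and bulb markers summed to 153 CPM against 339 CPM, with 2 of 7 higher and 1 lower, and none of 5 fat body markers was 2-fold apart. The part of these tissues in the results above was not tested.

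By chromosome arm, the genes at least 2-fold higher made up 24.5% to 28.3% of those measured on the arms of chromosomes 2 and 3, 16.7% on X (346 of 2068 genes), 15.8% on chromosome 4 (15 of 95 genes) and 43.5% on Y (10 of 23 genes). Lower genes made up 15.6% to 16.5% on the arms of chromosomes 2 and 3, 18.1% on X and 5.26% on chromosome 4. The median was -0.19 on X and between -0.00 and 0.08 on the arms of chromosomes 2 and 3. Genes at least 8-fold higher made up 1.16% of X genes, 1.05% of chromosome 4 genes and 3.27% to 4.48% of genes on those arms. Neighbouring genes and gene families are not independent, and these shares carry no test.

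**Figure D5:**
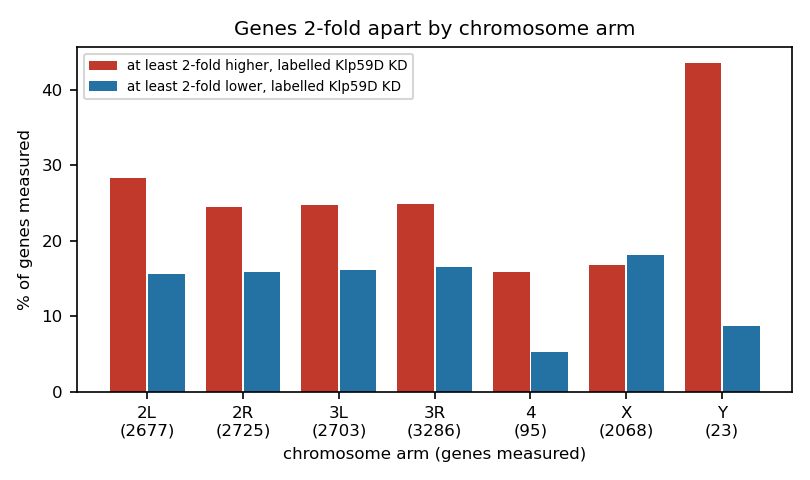
Percent of measured genes at least 2-fold higher (red) or lower (blue) in the labelled Klp59D KD libraries than in the sa mutant, by chromosome arm, with the number of genes measured under each arm. The bars for higher genes on X (16.7%) and chromosome 4 (15.8%) are below those of the large arms (24.5% to 28.3%), and the Y bars rest on 23 genes.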

How the data were processed

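Total RNA of whole testes was depleted of ribosomal RNA and made into stranded libraries, per the labels' protocols. The authors deposited whole-number counts of reads for 17412 FlyBase gene identifiers, and the values show no sign of normalization. Per the submitters' processing notes, reads went through Trim Galore 0.4.1 and STAR 2.5.1b with the genome build dm6. What counted the reads, on which strand, with which annotation and with what rule for multiply mapped reads is not given in the sources used here, so values of overlapping genes, antisense partners and near-identical paralogs (Sdic, S-Lap, Mst84D and Hsp70 genes) are uncertain. Symbols and coordinates came from Ensembl release 115, which named 17138 identifiers. No column belonged to another series (0).

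Groups and replicate numbers came from the labels. Beyond a number, nothing says that the 2 libraries of a group came from separate flies. The log2 ratio of library 2 to library 1 correlated at 0.187 between the groups over 8742 genes, and the numbers were taken as pairing the libraries from that check, since the labels do not state a pairing. The libraries of a group were summed, and genes passing edgeR's filterByExpr (edgeR 4.0.16, limma 3.58.1, R 4.3.3) were kept, 13831 in all. Summed counts were scaled by TMM factors (1.11 for labelled Klp59D KD, 1.29 for the sa mutant and 0.756 for WT). The log2 CPM was computed with a prior count of 2. Called genes were at least 2-fold apart. A count of 0 allows up to 3 counts, which is 0.0520 CPM for labelled Klp59D KD and 0.0620 CPM in the sa mutant. Intervals are exact binomial (Clopper-Pearson) at 95%. Without molecular identifiers, intervals and floors cover counting error only. Orders over the 5 conditions used log2 of CPM plus 0.05.

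The members and the lists (662 entries, of which 43 matched no single identifier) were chosen with earlier results of these data known. The rule for named genes took the targeted genes and Dcr-2, and the 10 largest differences in each direction among named genes with a mean log2 CPM of at least 4. It added the 5 largest among CG numbers. From each list it took all members where 10 or fewer were measured, otherwise the 6 largest, the 2 smallest and the 2 highest in level, and the general copies of named paralogs. Alternatives were RLE factors, library size alone, other low-count filters, leaving out structural RNA and mitochondrial genes, a prior count of 0.5, only the compared groups in the scaling, leaving out each library, edgeR quasi-likelihood fits with and without a replicate block, and DESeq2 1.42.0. The steps were tested on simulated counts. Tables and figures were made with Python 3.11.15, pandas 2.3.3 and matplotlib 3.10.9.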

Additional observations from a re-analysis of the deposited data

How the results depend on the processing

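The numbers of genes at least 2-fold higher (3319) and lower (2248) stayed within 1.5 times under every alternative run but 1. Keeping only genes with CPM over 5 in at least 2 libraries left 9934 genes, of which 1452 were lower, since fewer genes were tested. Leaving out each library in turn gave 3316 to 3444 higher and 2249 to 2478 lower genes. Pairing the libraries by number moved each count by 1: edgeR's quasi-likelihood fit, with a fold of at least 2 and an adjusted p under 0.05, gave 3212 higher and 2232 lower genes with the replicate block and 3211 and 2231 without it. These fits measure only the spread between libraries that agree within about sampling noise. DESeq2 gave 3160 higher and 2070 lower genes. Among the 405 named genes, none past 2-fold changed its direction. Medians of 10 lists changed sign under some setting, 7 of them with library size alone, and their medians with the settings of the report were all within 0.22 of 0. They include the Polycomb, cell cycle, centriole, general glycolysis, muscle, transition zone and tubulin lists. Depth limits genes with few or no counts in a group, and variation between flies is not measured.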

Other observations

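Long noncoding and antisense RNAs stood apart from protein-coding genes in the same comparison. Of 1494 noncoding RNAs measured, 41.6% were at least 2-fold higher in the labelled Klp59D KD libraries and 12.5% were lower (median 0.66), beside 22.4% and 16.2% of 11725 protein-coding genes (median -0.05). They made up 116 of the 454 genes at least 8-fold higher (25.6%), beside 10.8% of all genes measured. Chosen after their values were seen, lncRNA:CR43939 stood at 136 CPM against 10.7 CPM in the sa mutant, and lncRNA:CR40469 went the other way, at 336 CPM against 1389.6 CPM with 1715 CPM in WT. Reads of such genes cannot be told from those of overlapping genes where the counting strand is not given.

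Spliceosomal and related small nuclear RNAs were lower, 13 of 28 (46.4%) with 2 higher, as were 92 of 224 genes annotated as snoRNA (41.1%). The nuclear-encoded tRNA genes measured (44) had 5 lower and 2 higher.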
